A study of Mus musculus with 4 samples.

Results

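The genes described here are the integrins, the laminins and the plaque, tetraspanin and nidogen genes that work with them at the base of an epithelium. They were chosen by a rule on names in the probe-to-gene table of the array, with earlier results of these data known. It took every Itga and Itgb gene apart from 4 named binding-protein or integrin-like genes, every Lama, Lamb and Lamc gene, and Dst, Plec, Cd151, Npnt, Nid1 and Nid2. The rule found 41 genes of the 18193 on the array with a probe set of 1 symbol, and each was read from 1 probe set, the one brightest on average. All 41 were kept, with no filter on dim values.

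RNA came from mouse skin squamous cell carcinomas that had been induced chemically and are labelled as malignant. Tumours were digested with collagenase, and live cells that carried Epcam on their surface and lacked CD45, CD31 and CD140a were sorted, so that all 4 samples share this gate. The comparison is between tumour epithelial cells positive for a Sox2-GFP reporter (n = 2 arrays) and Sox2-GFP-negative cells (n = 2 arrays), which served as the control, and the series text names 2 carcinomas from 2 mice. The sources used here do not give strain, age, sex or the inducing chemicals. Signals are the deposited log2 values, which lay between 2.73 and 14.36, and a difference of 1 on this scale is a 2-fold change in signal.

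Integrins are paired alpha and beta chains that tie a cell to the matrix outside it, and each pair has its own set of ligands. In the epidermis, basal keratinocytes sit on a basement membrane of laminins, collagen IV and nidogens. They hold on to it through hemidesmosomes, in which the integrin pair alpha-6 beta-4 grips laminin-332 on the outside and is joined to keratin filaments inside by plectin and dystonin. The alpha-3 beta-1 pair binds the same laminin but connects to actin, and the integrins of the alpha-v group bind ligands with an RGD triplet, among them the latent form of TGF-beta. Other members belong to other cells: the beta-2 group to leukocytes, alpha-IIb to platelets, and laminin alpha-4 and the nidogens largely to vessels and connective tissue.

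For 3 members whose groups stood apart, the 250 bases before the first annotated transcription start are shown as RefSeq gives them (GRCm38.p6), read 5′ to 3′ in the direction of the gene, because these are the control regions closest to the transcripts measured. Npnt and Itgb8 had the widest separations below the negative cells, and Itgb1, the common beta chain, is one of the bright members above them. Capitals mark matches to GGGCGG, the Sp1 motif, on either strand.
Npnt, chr3:132950292-132950541 (- strand): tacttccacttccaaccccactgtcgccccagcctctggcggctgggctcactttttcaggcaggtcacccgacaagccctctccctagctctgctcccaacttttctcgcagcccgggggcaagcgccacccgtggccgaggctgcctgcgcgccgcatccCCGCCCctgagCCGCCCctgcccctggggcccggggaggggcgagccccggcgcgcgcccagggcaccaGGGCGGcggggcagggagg
Itgb8, chr12:119238277-119238526 (- strand): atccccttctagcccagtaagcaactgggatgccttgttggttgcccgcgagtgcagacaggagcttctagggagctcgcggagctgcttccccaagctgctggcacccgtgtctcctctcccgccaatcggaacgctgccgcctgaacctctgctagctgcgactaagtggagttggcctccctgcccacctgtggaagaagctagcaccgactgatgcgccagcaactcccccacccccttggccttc
Itgb1, chr8:128685404-128685653 (+ strand): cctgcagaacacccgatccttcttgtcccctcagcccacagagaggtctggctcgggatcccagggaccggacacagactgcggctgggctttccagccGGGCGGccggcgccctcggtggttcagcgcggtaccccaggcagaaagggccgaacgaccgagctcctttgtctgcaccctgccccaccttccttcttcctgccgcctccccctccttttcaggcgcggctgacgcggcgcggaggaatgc
Of the 41 members 27 had an entry in this promoter table, with 33 annotated starts. Searched on both strands, GGGCGG was found before 13 of the 33 starts, beside 32.7% of all 32851 promoters of that length. TGANTCA, the AP-1 motif, was found before 1 of the 33 (Itgax), beside 6.75% of all promoters, and CATTGT, a core of Sox sites, before 1 (Itga8), beside 10.7%. None of the 3 sequences holds TGANTCA or CATTGT, which says only that these letters are not in these windows.

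The label of the cells was checked against markers. The 7 epithelial markers averaged 10.44 and 10.57 (log2) in positive cells against 10.20 and 10.66 in negative cells, with 3 separated above (Krt14, Trp63 and Krt18) and 2 below (Krt5 and Cdh1). The gaps of Krt5 and Krt14 were only 0.0015 and 0.011, so these separations are near ties. Within the list Krt18, a keratin of simple epithelium, differed by 1.45 ± 0.64 SE and Cdh1, the gene of E-cadherin, by -0.96 ± 0.32 SE (limma adjusted p = 0.381 and 0.293), and Epcam and Krt8 overlapped. Markers of other cell types were present at differing levels, although cells had been sorted for Epcam and against CD45, CD31 and CD140a. The gate named no other surface proteins, so it did not cover every cell type listed here. The 12 fibroblast and pericyte markers averaged 8.67 and 6.29 in positive cells against 11.03 and 9.38 in negative cells, with all 12 lower in both positive arrays than in both negative arrays. The 10 endothelial markers averaged 5.97 and 5.15 against 7.46 and 5.89, and the 13 leukocyte markers 6.59 and 5.67 against 7.13 and 6.38, with 3 and 1 of them separated below. Negative replicate 1 was the highest array and positive replicate 2 the lowest in the means of the fibroblast, endothelial and leukocyte lists. The same held for the muscle list and for the list of pigment and Schwann cells. Itgam and Itgax are on the leukocyte list and are members too, and Ptprc, the gene of CD45, stayed between 4.18 and 4.98. Of the markers of pigment and Schwann cells 5 of 7 were separated below, of muscle 1 of 8, and of platelets 0 of 5. Separated above in these 3 lists were 0, 2 (Acta1 and Ckm) and 1 (Gp6), with 0 endothelial markers and 1 leukocyte marker (Cd68). Over all genes 35.5% were separated above and 14% below. In RNA from sorted cell pools, fewer cells of a type and less RNA per cell cannot be told apart. The Sox2 probe set itself lay near the floor, at 3.50 and 3.27 in positive cells against 3.14 and 3.43 in negative cells, so it does not check the labels.

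The comparison asked how the adhesion genes of Sox2-GFP-positive tumour cells differ from those of the negative cells. The genes of the hemidesmosome and of laminin-332 all read higher in positive cells, as did Itga3, Itgb1 and Lama5, by 1.26-fold to 2.91-fold. Npnt, Itgb8, Lama4, Nid1 and Nid2 read 4.04-fold to 13.6-fold lower, and the leukocyte integrins lay close together. The positive values of Npnt, Itgb8 and Nid2 lay near or below the lower quartile of their arrays, so those ratios are only bounds. No member passed the test over all genes: limma with Benjamini-Hochberg adjustment called 0 of the 41 members and 0 of the 18193 genes (0%), and the lowest adjusted p of a member was 0.157 (Npnt). At an unadjusted p under 0.05 stood 5 members above (Itga3, Itgb4, Itgb1, Lamb3 and Lama5) and 4 below (Npnt, Itgb8, Lama4 and Nid2), beside 9.75% and 5.22% of all genes. With the replicate number as a term in the fit, although the labels do not say that a number marks a tumour, limma called 4 members lower (Npnt, Itgb8, Nid1 and Lama4) and 0 higher, beside 0.868% and 0.0715% of all genes. That fit has fewer residual degrees of freedom, and the SE of Nid1 was 0.25 in it against 1.05 without the term.

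Counted without a test, 11 of the 41 members (26.8%) had both positive arrays above both negative arrays, beside 35.5% of all genes, and 12 (29.3%) had both below, beside 14% of all genes. By at least 0.5 log2 units, 3 members were separated above (Itga3, Itgb4 and Lamb3) and 4 below (Npnt, Itgb8, Lama4 and Nid2), beside 5.23% and 3.67% of all genes. The median log2 difference, positive minus negative, was 0.07 over the members and 0.14 over all genes, and 22 members had a difference above 0, beside 66% of all genes. Adjusting the arrays to equal signal of the 24 spiked-in bacterial probe sets raised every difference by 0.79 and turned the split of separated members from 11 above and 12 below to 26 above and 3 below, so directions are best read relative to the median of all genes, beside which 17 members lay higher and 24 lower with or without that scaling.

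**Figure D1:**
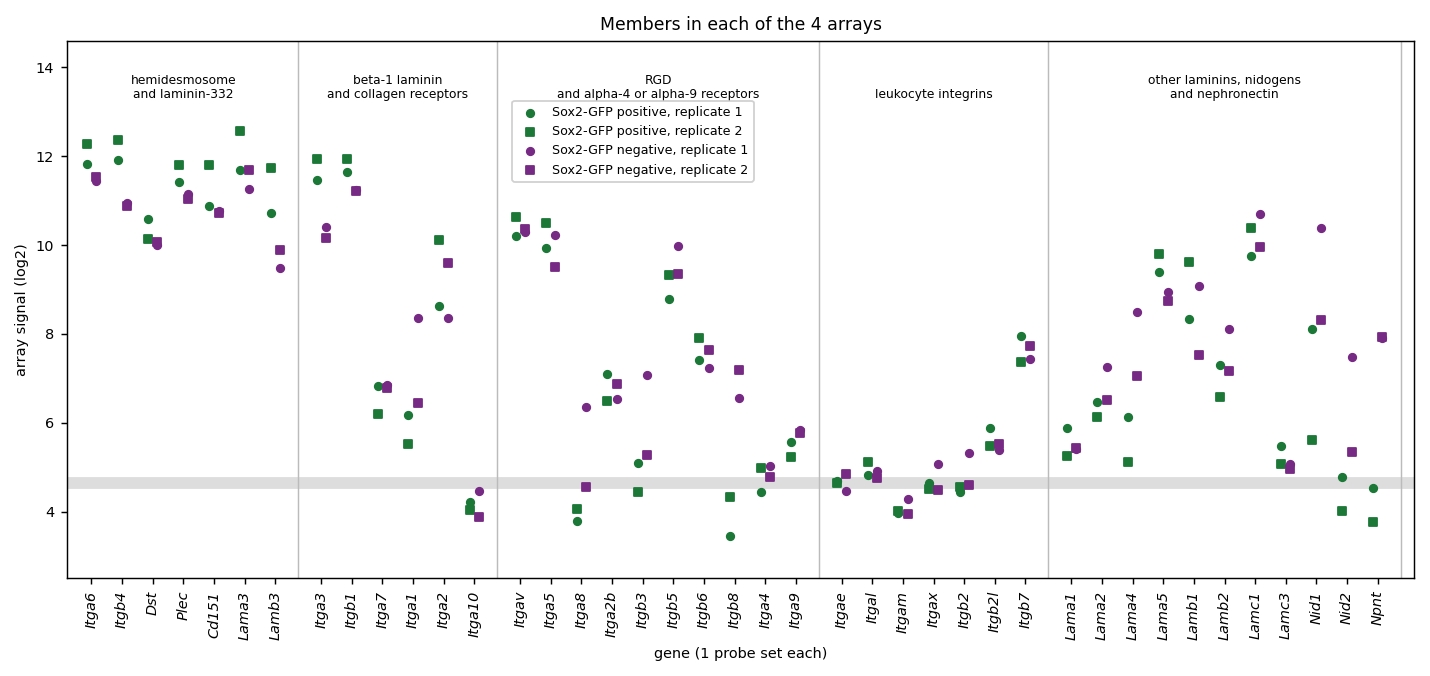
Array signal (log2) of the 41 genes, grouped by role, with green for Sox2-GFP-positive and purple for negative arrays, circles for replicate 1 and squares for replicate 2; the grey band spans the lower quartiles of the 4 arrays over genes (4.53 to 4.77). The 7 hemidesmosome and laminin-332 genes lie higher in both positive arrays, while Npnt and Itgb8 are in or below the band only in the positive arrays.

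Every one of the 7 hemidesmosome and laminin-332 genes had both positive arrays above both negative arrays, beside 35.5% of all genes as deposited. Under equal medians all 7 did so too, beside 43.6% of all genes, and after quantile normalization 5 of the 7, beside 35.2%. Under the spike-in adjustment all 7 did, but so did 84.8% of all genes (82% when the spiked Trp probe sets, which lay at the floor, were included), so the count there is near the background. All 7 differences stayed above the median of all genes under each of these scalings. Their median difference was 0.59. None passed limma over all genes (adjusted p = 0.195 to 0.540). The count of 7 rests on the probe set used for each gene. Another probe set of Dst was separated below (-0.75), and others of Dst, Cd151 and Lama3 overlapped. With the probe sets of each gene averaged, the difference of Dst changed sign.

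Itgb4, the beta chain that pairs with alpha-6 in hemidesmosomes, read 11.90 and 12.37 in positive cells against 10.95 and 10.88 in negative cells. Both positive arrays lay 0.96 or more above the negative ones, a 2.33-fold difference (log2 1.22 ± 0.24 SE, n = 2 per group, limma adjusted p = 0.195). Its partner Itga6 read 11.83 and 12.28 against 11.45 and 11.53. The Itga6 groups also did not overlap, but the difference was smaller, at 0.56 ± 0.23 (limma adjusted p = 0.353), and its 95% interval of -0.04 to 1.16 includes 0.

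The measured chains of the ligand read higher as well. Lamb3, the beta-3 chain of laminin-332, read 10.72 and 11.74 against 9.48 and 9.89, the widest difference above the negative cells among the members (2.91-fold, log2 1.54 ± 0.39 SE, limma adjusted p = 0.236). Positive replicate 2 was the highest array, 1.02 above positive replicate 1. Lama3, the alpha-3 chain, read 11.70 and 12.56 against 11.27 and 11.68. Its positive replicate 1 cleared negative replicate 2 by only 0.02, and the difference was 0.65 ± 0.35 (limma adjusted p = 0.454).

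The cytoplasmic plaque and the tetraspanin showed smaller differences. Plec, which encodes plectin, the link from beta-4 to keratin, read 11.42 and 11.81 against 11.15 and 11.04 (0.51 ± 0.22 SE). Cd151, a tetraspanin that associates with the laminin-binding integrins, read 10.87 and 11.80 against 10.76 and 10.73 (0.59 ± 0.35 SE), so that most of its difference came from positive replicate 2. Dst, whose epidermal form is the plaque protein BPAG1, read 10.59 and 10.15 against 9.99 and 10.08 (0.33 ± 0.23 SE), with groups 0.07 apart.

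Genes of the same structures outside the members were mixed. On a list of 11 hemidesmosome partners, 10 were measured and limma called 0 (unadjusted p under 0.05: 2 higher, 1 lower). Of the 10, 5 were separated above and 3 below (50% and 30%, beside 35.5% and 14% of all genes). Col17a1, the transmembrane collagen of hemidesmosomes, read 12.51 and 12.70 against 12.17 and 12.07, and the tetraspanin genes Cd9 and Cd81 were separated above as well, by 0.68 ± 0.22 and 0.69 ± 0.25. Krt5 and Krt14, the basal keratins to which the plaque attaches, differed by -0.04 and 0.04. Both are in the counts of separated genes, with gaps of only 0.0015 and 0.011. Ppl, which encodes periplakin, a plakin of desmosomes and the cornified envelope, read 7.58 and 8.18 against 8.82 and 9.37. 

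**Figure D2:**
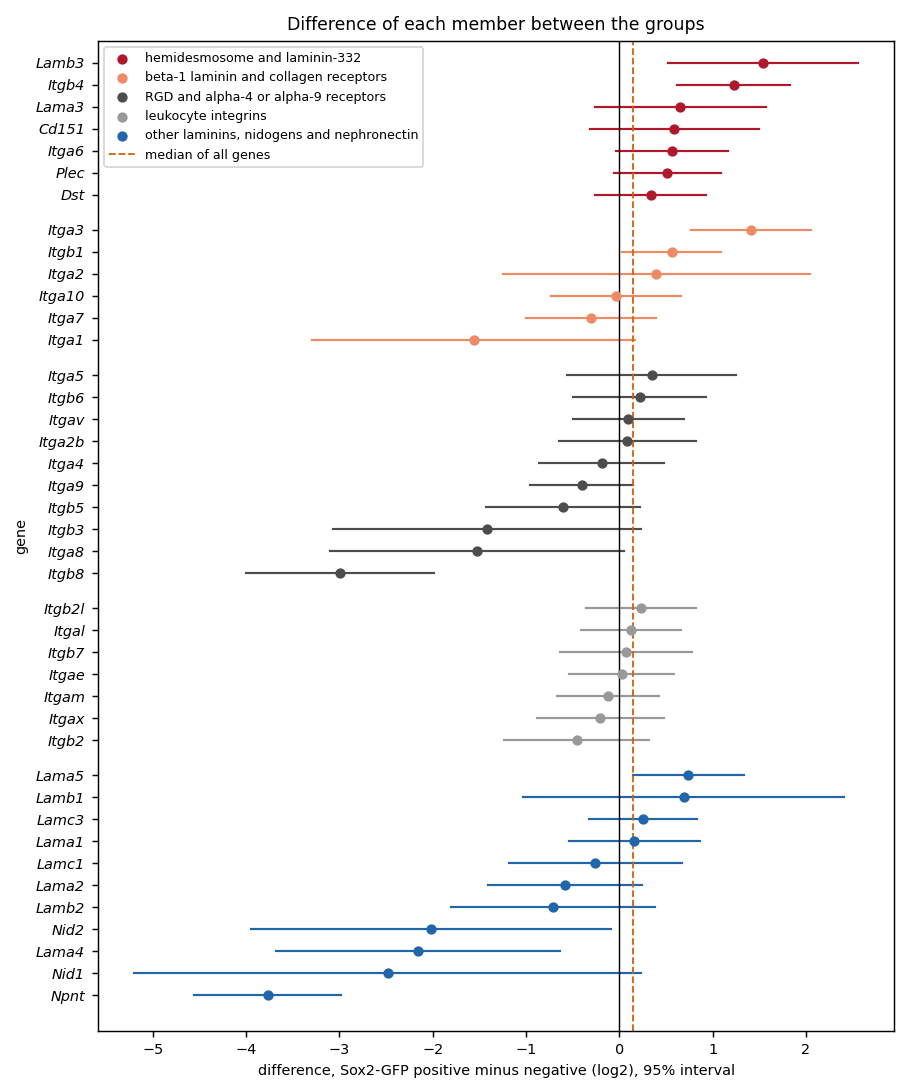
Log2 difference, positive minus negative, of each of the 41 genes with its 95% interval from limma, coloured by role and ordered by size within a role; the dashed line is the median of all genes (0.14). The 7 hemidesmosome and laminin-332 genes lie to the right of the line, and the intervals of Npnt and Itgb8 end at -2.98 and -1.99.

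Among the beta-1 receptors for laminin and collagen, the laminin receptor of keratinocytes had the widest gap between the groups, although the difference in means was larger for the collagen receptor gene Itga1. Itga3, the alpha-3 chain, read 11.46 and 11.93 in positive cells against 10.41 and 10.16 in negative cells. The groups stood 1.05 apart, wider than the spread within either, with a 2.66-fold difference (log2 1.41 ± 0.25 SE, 95% interval 0.77 to 2.05, limma adjusted p = 0.184). It was the only member separated above by at least 1 log2 unit, which 0.665% of all genes reached. Itgb1, its partner, read 11.64 and 11.93 against 11.24 and 11.22, with groups 0.40 apart and a difference of 0.56 ± 0.20 (limma adjusted p = 0.315).

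The collagen receptors did not share this. Itga2, the alpha-2 chain that keratinocytes use on collagen I, read 8.64 and 10.10 against 8.36 and 9.59. Both replicate 2 arrays were higher than both replicate 1 arrays, and the groups overlapped (0.40 ± 0.64 SE). Itga1, the collagen receptor of mesenchymal and vascular cells, read 6.18 and 5.51 against 8.36 and 6.45, a difference of -1.56 ± 0.67 (limma adjusted p = 0.366) that rests mostly on negative replicate 1; without that array it was -0.61. Itga7, the laminin receptor of muscle, read 6.19 to 6.84 over the 4 arrays, and Itga10, a collagen receptor of cartilage, 3.87 to 4.47, at or below the lower quartile of every array.

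The next group took the RGD-binding chains and their beta partners other than Itgb1, with alpha-4 and alpha-9, which bind other ligands. It held 0 of 10 genes separated above and 5 of 10 below (Itga8, Itga9, Itgb3, Itgb5 and Itgb8), beside 35.5% and 14% of all genes. Itgb1, which pairs with several of these alpha chains, was counted with the laminin and collagen receptors and was separated above. Itgb8, which pairs with alpha-v and takes part in activating latent TGF-beta, read 3.44 and 4.32 in positive cells against 6.55 and 7.20 in negative cells. Its negative arrays lay 2.24 or more above the positive ones (7.97-fold, log2 -2.99 ± 0.39 SE, upper bound of the 95% interval -1.99, limma adjusted p = 0.176). The positive arrays lay below the lower quartile of their genes (4.77 and 4.53), and with no detection calls the ratio only bounds the difference. Itgb8 has 1 probe set, so it had no second reading. The counts of this group rest on the probe set used for each gene. On another probe set Itga5 (0.51 ± 0.19 SE) and Itgb6 (0.45 ± 0.18) were separated above. The other probe sets of Itgb5 and Itga8 overlapped. Those of Itga9 and Itgb3, and a dim one of Itga4, were separated below.

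The alpha-v chain itself, Itgav, read 10.20 and 10.64 against 10.29 and 10.35 and overlapped between the groups (0.10 ± 0.23 SE). Of its other partners, Itgb6, the epithelial beta-6 chain that also activates latent TGF-beta, read 7.40 and 7.91 against 7.24 and 7.64 and overlapped too. Itgb5, a vitronectin receptor chain, read 8.80 and 9.32 against 9.98 and 9.35, with groups 0.03 apart (-0.61 ± 0.32 SE). Of the 5 measured beta chains that can pair with alpha-v, Itgb1 read higher in positive cells, Itgb6 overlapped, and Itgb3, Itgb5 and Itgb8 lay lower. Tgfb1, the ligand that alpha-v beta-6 and alpha-v beta-8 help to release, read 9.19 and 9.48 against 7.43 and 8.13 (1.55 ± 0.30 SE, limma adjusted p = 0.197).

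Itgb3, the beta-3 chain of vascular cells and platelets, read 5.09 and 4.43 against 7.08 and 5.28 (-1.42 ± 0.64 SE), with negative replicate 1 standing apart from the other 3 arrays. Itga8, whose pair with beta-1 is the receptor for nephronectin, read 3.78 and 4.06 against 6.35 and 4.54 (-1.52 ± 0.61 SE). Here too negative replicate 1 was the high array, and the other 3 were at or below the lower quartile. Without negative replicate 1 the differences were -0.52 for Itgb3 and -0.62 for Itga8.

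Itga5, the fibronectin receptor chain, read 9.92 and 10.50 against 10.24 and 9.50 and overlapped (0.35 ± 0.35 SE). Itga9, which binds tenascin and VCAM1, was separated below by 0.19 (-0.40 ± 0.21 SE). Itga4, the lymphocyte receptor for VCAM1, lay between 4.44 and 5.02, and Itga2b, the platelet chain, between 6.48 and 7.09, both with overlapping groups. The beta-2 group of leukocytes and its relatives (Itgae, Itgal, Itgam, Itgax, Itgb2, Itgb2l and Itgb7) had differences from -0.46 to 0.23. Of these 7, only Itgb2, the common beta-2 chain, had groups that did not overlap on the probe set used. It read 4.43 and 4.56 against 5.32 and 4.59, 0.03 apart. On dimmer probe sets Itgae (-0.60 ± 0.22 SE) and Itgal (-0.49 ± 0.22) were separated below and Itgb2l (0.62 ± 0.25) above.

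The laminins outside laminin-332, the nidogens and nephronectin included the widest separations. Npnt encodes nephronectin, a basement membrane protein known in skin from the hair follicle bulge, where it binds alpha-8 beta-1. It read 4.54 and 3.77 in positive cells against 7.91 and 7.93 in negative cells. The negative arrays differed from each other by 0.03 and lay 3.37 or more above the positive ones, a 13.6-fold difference (log2 -3.77 ± 0.30 SE, 95% interval -4.56 to -2.98, limma adjusted p = 0.157). The positive values were at or below the lower quartile of their arrays, so this ratio too is only a bound. Npnt and Itgb8 were the 2 members separated below by at least 1 log2 unit, which 1.36% of all genes reached.

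Lama4, the alpha-4 chain of vessel and muscle basement membranes, read 6.12 and 5.11 against 8.50 and 7.06 (-2.16 ± 0.59 SE, limma adjusted p = 0.243). Its groups were 0.94 apart, and within each group replicate 1 was the higher array. Nid1, which bridges laminin and collagen IV, read 8.11 and 5.61 against 10.38 and 8.31. Here the spread within the groups was about as wide as the difference of -2.48 ± 1.05 (limma adjusted p = 0.362), and positive replicate 1 came within 0.20 of negative replicate 2. Nid2, its homologue, read 4.79 and 4.001 against 7.47 and 5.34 (-2.02 ± 0.75 SE, limma adjusted p = 0.320). The positive values of Nid2 lay near or below the lower quartile of their arrays (4.77 and 4.53), so its ratio too is only a bound. Without negative replicate 1 the differences were -1.44 for Lama4, -1.45 for Nid1 and -0.95 for Nid2.

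Lama4, Nid1, Nid2, Itga1, Itgb3, Lama2, Lamb2, Itga7 and Itga9 had the array order of the fibroblast markers, with negative replicate 1 highest and positive replicate 2 lowest. These are 9 of the 41 members (22%), beside 7.76% of all genes, 12 of the 12 fibroblast markers and 8 of the 10 endothelial markers. The means of the muscle list and of the pigment and Schwann cell list had this order too. The part of any of these cells in the members' differences was not tested. Relative to the mean over the 4 arrays, the fibroblast list stood at -0.17 and -2.55 in the positive and at 2.18 and 0.54 in the negative arrays, and Nid1 stood at 0.01 and -2.49 and at 2.27 and 0.21. Npnt, at -1.50 and -2.27 against 1.87 and 1.90, and Itgb8, at -1.93 and -1.06 against 1.17 and 1.82, did not have this order. The 10 suprabasal keratinocyte markers stood at -0.34 and -1.13 in the positive arrays and at 0.63 and 0.84 in the negative arrays. Negative replicate 2 was highest for this list and for Itgb8, while the negative arrays of Npnt were about equal. Positive replicate 2 was lowest for the list and for Npnt, but positive replicate 1 for Itgb8. The part of suprabasal cells was not tested either.

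**Figure D3:**
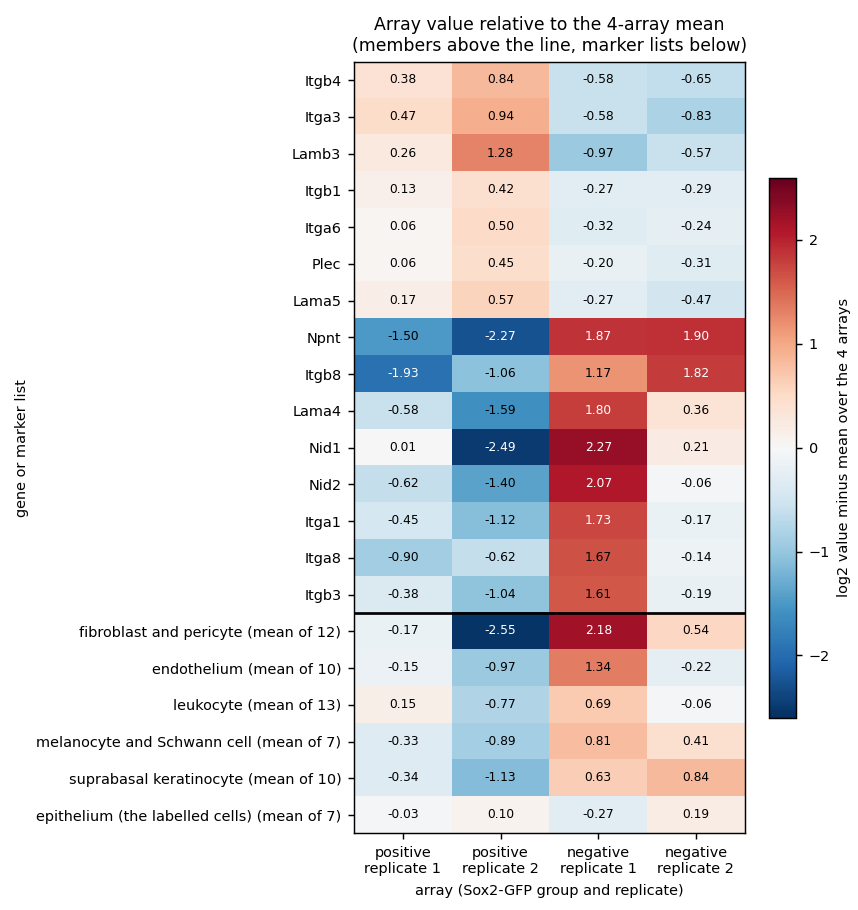
Log2 value of 15 members and the mean of 6 marker lists in each array, relative to the mean over the 4 arrays (red above, blue below). Nid1, Nid2, Lama4, Itga1 and Itgb3 are highest in negative replicate 1 and lowest in positive replicate 2, like the fibroblast list, while Npnt is about equally high in both negative arrays and Itgb8 is higher in negative replicate 2 (1.82) than in replicate 1 (1.17).

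Lama5, the alpha-5 chain of the epidermal basement membrane, was also separated above. It read 9.38 and 9.79 against 8.95 and 8.75, with groups 0.44 apart and a difference of 0.74 ± 0.23 (limma adjusted p = 0.272). Its usual partner chains did not separate. Lamb1 read 8.34 and 9.61 against 9.07 and 7.51, with the highest and lowest arrays both from replicate 2 (0.69 ± 0.67 SE), and Lamc1 read 9.76 and 10.38 against 10.70 and 9.95 (-0.26 ± 0.36 SE).

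Of the remaining laminins, Lama2, the alpha-2 chain of muscle and nerve, read 6.46 and 6.12 against 7.26 and 6.503 (-0.59 ± 0.32 SE), with groups 0.04 apart. Lamb2, the beta-2 chain of vessels and nerve-muscle contacts, overlapped (-0.71 ± 0.42 SE). Lama1, an embryonic chain, overlapped between 5.26 and 5.89, and Lamc3 was separated above by less than 0.01. Of the 10 laminin genes, 4 were thus separated above and 2 below. Of the 16 alpha integrins 2 were above and 3 below, and of the 9 beta integrins 2 and 4, beside the same 35.5% and 14% of all genes.

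Members with several probe sets gave a second reading. Of the 41 members 26 had more than 1 probe set, and in 17 of these all probe sets differed in 1 direction. All 5 Npnt probe sets read lower in positive cells, with differences from -0.60 to -3.77, and in all 5 the groups did not overlap. The 3 of Itga3 agreed closely, at 1.29 to 1.41, as did the 2 of Itga6 (0.56 and 0.59) and the 2 of Lama4 (-2.16 and -2.24). Cd151 spread widely: 5 of its 6 probe sets read higher, with 1.44 and 1.46 at the 2 designed from the same transcript record, and 1 read -0.22. Dst was the only member with probe sets separated in opposite directions: 2 read 0.33 and 0.34, while another read 7.01 and 7.68 against 8.32 and 7.87 (-0.75). The probe sets of Dst can detect different transcripts of that gene, and which ones was not tested.

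**Figure D4:**
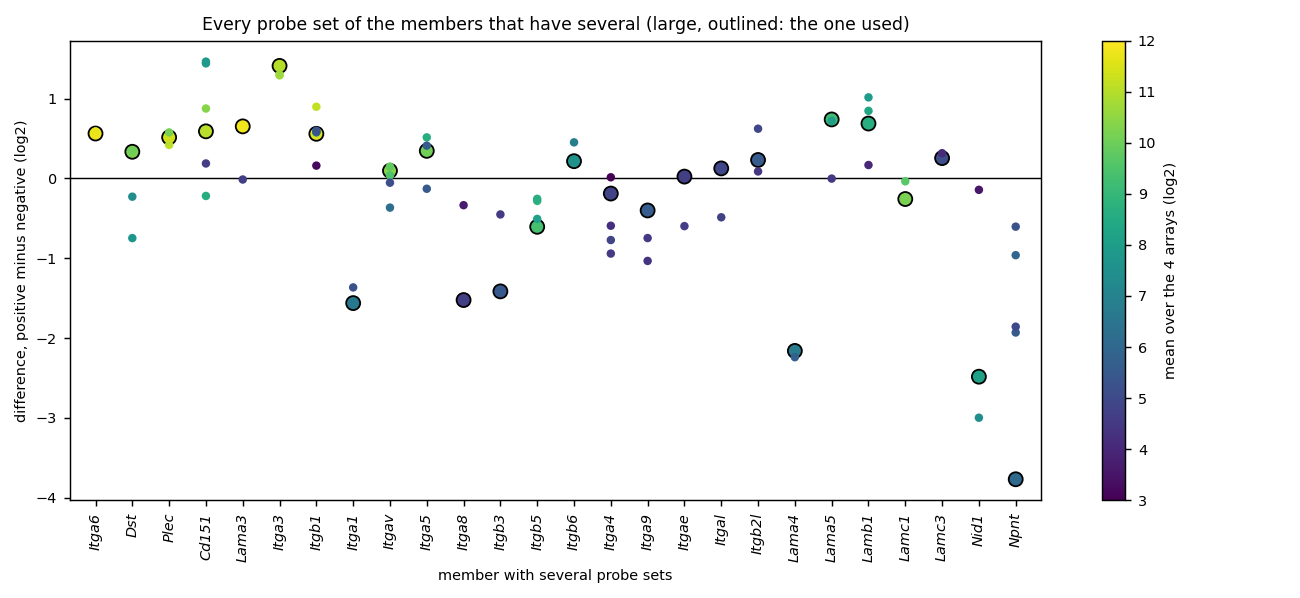
Log2 difference, positive minus negative, of every probe set of the 26 members with more than 1, coloured by mean signal over the 4 arrays, with the probe set used outlined. The probe sets of Itga3, Itga6, Plec and Lama4 fall close together, those of Cd151, Dst and Npnt spread, and all 5 of Npnt lie below 0.

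The pathway around the members was read from lists of other genes, in which limma called 0 genes. With the replicate number as a term, limma called 4 genes of these lists: Tns1 (adjusted p = 0.0390), Col4a1 (0.0308) and Fn1 (0.0308) lower, and Grip1 (0.0420) higher. The counts of separated genes in each list are to be read against 35.5% above and 14% below over all genes. Of 30 focal adhesion and integrin signalling genes 27 were measured, with 6 separated above (22.2%) and 5 below (18.5%), and 1 higher and 2 lower at an unadjusted p under 0.05. Zyx, which encodes zyxin of focal adhesions, read 10.54 and 10.98 against 9.84 and 9.61 (1.03 ± 0.24 SE), and Pxn, which encodes paxillin, and Ilk, integrin-linked kinase, were separated above by 0.68 ± 0.27 and 0.64 ± 0.27. Tns1, a tensin of fibroblasts and muscle, read 6.99 and 6.05 against 9.17 and 7.95 (-2.04 ± 0.52 SE), and Tln2, the second talin, was separated below as well (-1.27 ± 0.34 SE). Tln1 and Vcl, the main talin and vinculin, overlapped.

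Of 27 other basement membrane genes, all measured, 7 were separated above (25.9%) and 8 below (29.6%), and 3 were higher and 5 lower at an unadjusted p under 0.05. Col4a1 and Col4a2, the collagen IV chains of nearly all basement membranes, both had the array order of Nid1: Col4a1 read 8.78 and 7.50 against 11.93 and 9.95, while Col4a2 read 7.99 and 7.34 in positive cells against 11.42 and 9.03. Col15a1, a collagen of vessel basement membranes, lay lower too (-2.18 ± 0.61 SE), as did the collagen receptor gene Ddr1 (-0.65 ± 0.20 SE). Agrn, which encodes agrin, read 10.91 and 11.19 against 10.55 and 10.24. Grip1, a scaffold that helps to place the Fras1 and Frem proteins of epidermal attachment, read 8.39 and 8.96 against 6.55 and 6.56 (2.12 ± 0.26 SE, limma adjusted p = 0.169).

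Among 26 other integrin ligands, 21 were measured, with 4 separated above (19%) and 7 below (33.3%), and 3 higher and 5 lower at an unadjusted p under 0.05. Fn1, fibronectin, read 8.30 and 6.35 against 10.70 and 9.27, again with negative replicate 1 highest and positive replicate 2 lowest. Thbs1, thrombospondin, was lower by 0.96 ± 0.19 and Vcam1, the alpha-4 and alpha-9 ligand, by 0.72 ± 0.20. Ltbp1, which holds latent TGF-beta in the matrix, read 10.52 and 10.37 against 9.53 and 8.78 (1.29 ± 0.30 SE). Of 18 transcription factors linked to basal adhesion genes 16 were measured, with 3 separated above and 3 below (18.8% each), and 0 higher and 1 lower at an unadjusted p under 0.05. The largest of these differences was that of Sox9 (-0.78 ± 0.28 SE), while Trp63, the master regulator of basal keratinocytes, read 12.66 and 12.68 against 12.37 and 12.47.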

How the data were processed

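Per the labels' protocols, total RNA was spiked with bacterial transcripts, amplified and biotin-labelled by in vitro transcription, and each sample was hybridised to its own Affymetrix array of the mouse genome. As deposited by the authors, the table holds log2 signals of 45101 probe sets. The log2 scale was read from the values. The submitters' processing notes name R 2.14.0. How background, normalization and probe set summaries were handled is not given in the sources used here.

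Groups and replicate numbers came from the sample titles. The 64 control probe sets were left out, and 34945 probe sets with 1 symbol in the platform annotation (932 had several, 9160 none) gave 18193 genes. The test was limma 3.58.1 in R 4.3.3 (lmFit, eBayes) over all genes and 4 arrays, with group as the only term, 2 residual degrees of freedom (prior 2.92), and Benjamini-Hochberg adjusted p under 0.05. The fit with group as the only term was run on data simulated with independent noise, which checks the size of its estimates and not the block. Groups were also compared by whether all positive arrays lie above, or below, all negative arrays. Depth is limited by the number of arrays, and the table holds no detection calls. In full were to be given the hemidesmosome genes, Itga3, Itgb1, members at least 0.5 apart, called in any fit, or among the brightest, and from other lists up to 4 genes with the smallest p. Others were named after their values were seen. The members and lists were chosen with earlier results of these data known. Alternatives were the replicate number as a block, 4 scalings, filters, priors, probe set averaging and leaving out each array. The block leaves 1 residual degree of freedom.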

Additional observations from a re-analysis of the deposited data

How the results depend on the processing

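The number of arrays, 2 per group, is the main limit, and no member was called as deposited. The labels do not say that a replicate number marks a tumour, and the differences between replicates 1 and 2 in the positive and in the negative arrays correlated with r = 0.16 across all genes and r = 0.465 across the 41 members, where genes are not independent replicates. With the replicate block, limma called 13 genes higher and 158 lower (0.0715% and 0.868% of all genes) and 4 members lower: Npnt and Itgb8 (both adjusted p = 0.0262), Nid1 (0.0308) and Lama4 (0.0389). The replicate block with quantile normalization called 17 higher and 166 lower, with the same 4 members. The replicate block without dim genes called 0, with 25 members left (Npnt, Itgb8 and Nid2 were among those dropped), a median difference of 0.33 over them, as without dim genes alone, and 5 members separated below in both. A trended prior called 1 gene higher and 18 lower, Npnt being the 1 member (adjusted p = 0.0423). Spike-in scaling moved most: with the Trp probe sets, which lay at the floor, 10391 genes were called higher and 176 lower, 16 members higher and 2 lower, with 23 members separated above, 3 below, and a median of 0.76. Without Trp, chosen after seeing the data, these were 12559, 158, 20, 2, 26, 3 and 0.86, Npnt and Itgb8 being the 2 lower members in both. The members' median was 0.15 under equal medians and -0.075 when the probe sets of each gene were averaged. Leaving out 1 array called 0 genes and 0 members, with 15 to 17 members separated above, 13 to 19 below and a median from -0.022 to 0.052. Separated above were 17 without positive replicate 1 or negative replicate 1, and separated below 19 without negative replicate 2; with 3 arrays, groups overlap less often by construction.

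Differences that changed sign were those of quantile normalization, with or without the block (Itgav -0.0116), equal medians (Itga10 0.0465), the mean of the probe sets (Dst -0.0749, Itgae -0.29, Itgal -0.18, Itgav -0.028), spike-in scaling with Trp (Itga10 0.65, Itga4 0.50, Itga7 0.38, Itga9 0.28, Itgam 0.56, Itgax 0.48, Itgb2 0.23, Itgb5 0.0788, Lama2 0.0992, Lamc1 0.43) and without Trp (Itga10 0.76, Itga4 0.60, Itga7 0.49, Itga9 0.39, Itgam 0.67, Itgax 0.59, Itgb2 0.33, Itgb5 0.18, Lama2 0.21, Lamb2 0.0788, Lamc1 0.53). Leaving out 1 array turned 16 members, whose differences then ran, for Itga10 from -0.34 to 0.27, Itga2 from -0.34 to 1.13, Itga2b from -0.22 to 0.39, Itga4 from -0.45 to 0.0746, Itga5 from -0.0222 to 0.71, Itga7 from -0.62 to 0.011, Itgae from -0.17 to 0.21, Itgal from -0.0182 to 0.27, Itgam from -0.29 to 0.0517, Itgav from -0.13 to 0.32, Itgax from -0.50 to 0.0896, Itgb6 from -0.0384 to 0.47, Itgb7 from -0.21 to 0.36, Lama1 from -0.16 to 0.48, Lamb1 from -0.0909 to 1.47, Lamc1 from -0.63 to 0.12. The hemidesmosome and laminin-332 genes, Itga3, Itgb1, Lama5, Npnt, Itgb8, Lama4, Nid1 and Nid2 kept their direction under every alternative that held them, apart from Dst with the mean of its probe sets. Npnt, Itgb8 and Nid2 were dropped with the dim genes. Much of this was fixed by construction. The block, the priors and the dim filter leave a difference unchanged, and leaving out 1 array cannot turn groups that do not overlap. Spike-in scaling raised every difference, so it could not turn those above 0. The causes of these changes were not tested beyond what each alternative does by construction.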
